A study of Mus musculus with 12 samples.

Results

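Hip cartilage of Mapk9 KO mice was compared between injured and control hips, on 3 arrays for each condition, which are 6 of the 12 arrays in the series. The members of the comparison were chosen from the sample labels alone. The labels give C57BL6 mice of 4 to 6 weeks, and the genotype MAPK9 KO for both groups, without the kind of knockout or the part of the gene that was removed. Injury was the avulsion of the femoral epiphysis from hips of freshly culled mice. Control hips were frozen at once, whereas injured hips were kept for 4 h in medium without serum, so that injury and culture cannot be told apart here. The remaining 6 arrays hold WT hips treated in the same way, 3 control and 3 injured. They are used below where a value of the knockout is set beside the wild type. According to the methods, each cartilage sample pooled hips of several mice, but they do not describe the Mapk9 KO arrays themselves. Levels are log2 intensities on Illumina bead arrays, and a log2 change is the mean of the injured arrays minus the mean of the control arrays. A probe counted as detected at a detection p-value under 0.05.

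Mapk9 encodes JNK2, a kinase of the c-Jun N-terminal kinase family that is expressed in most tissues together with JNK1, the product of Mapk8. Stress, cytokines and mechanical injury activate these kinases through MAP2K4 and MAP2K7. They phosphorylate c-Jun, ATF2 and related proteins, which bind DNA as the dimers called AP-1. In cartilage, JNK signalling is best known for the control of matrix-degrading enzymes such as the aggrecanases and collagenases.

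Mapk9 was measured by 2 probes of the normalised table. One starts at base 900 of its transcript, within the coding sequence, and is shown because it bears on the genotype.
Mapk9, base 900: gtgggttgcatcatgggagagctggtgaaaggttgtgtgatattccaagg
On control hips of the knockout this probe read 4.23, 4.09 and 4.28, and on injured hips 3.62, 3.42 and 3.75. It was detected on none of the 6 Mapk9 KO arrays, and on 4 of the 6 WT arrays, where it read 5.03 to 7.29. The other probe lies far 3′, at base 4211, and was detected on all 12 arrays. It read 8.69 to 9.28 in the knockout and 10.05 to 10.90 in the wild type. Neither probe overlapped between genotypes. At the 3′ probe the knockout lay 1.57 lower on the log2 scale, with an exact two-sided permutation p = 0.002165 over 924 arrangements, the smallest p that 6 against 6 arrays allow. No fold is given for the coding probe, since its knockout values are not above background. Which of the probes lies in the deleted part was not given, so the 3′ signal on its own says nothing of the deletion.

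Transcript levels differed widely between injured and control hips of the knockout. Of 14676 genes measured, 1608 (11.0%) were upregulated and 1567 (10.7%) were downregulated, where a gene passed with at least 1 probe that changed more than 2-fold at an adjusted p under 0.05 by limma. In all, 3166 genes (21.6%) changed, and 9 of them had probes in both directions. At the level of probes, 2015 of 21004 (9.59%) were upregulated and 1919 (9.14%) were downregulated. More than 4-fold changes were found in 439 upregulated and 439 downregulated genes. For the brightest probe of each gene, called its main probe below, injured and control arrays did not overlap in 7382 genes (50.3%), with the injured arrays higher in 3457 (23.6%) and lower in 3925 (26.7%). The median log2 change over all main probes was −0.04, and each gene list below is read against that value and against the 11.0% and 10.7% of all genes. A list count near those shares is no result about the list. On the main probe alone 1316 genes (8.97%) were upregulated and 1424 (9.7%) downregulated. Of the genes on any list below, 250 were upregulated and 157 downregulated, of which 222 and 146 passed on their main probe. The first principal component of the 6 arrays separated injured from control hips and held 80% of the variance. Pearson correlations over all probes were 0.974 to 0.985 within groups and 0.868 to 0.898 between them. Each Mapk9 KO array detected 16930 to 18464 probes. With limma's fit on the raw signals after quantile normalisation without background correction, called uncorrected quantile normalisation below, the counts were 747 and 693.

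**Figure D1:**
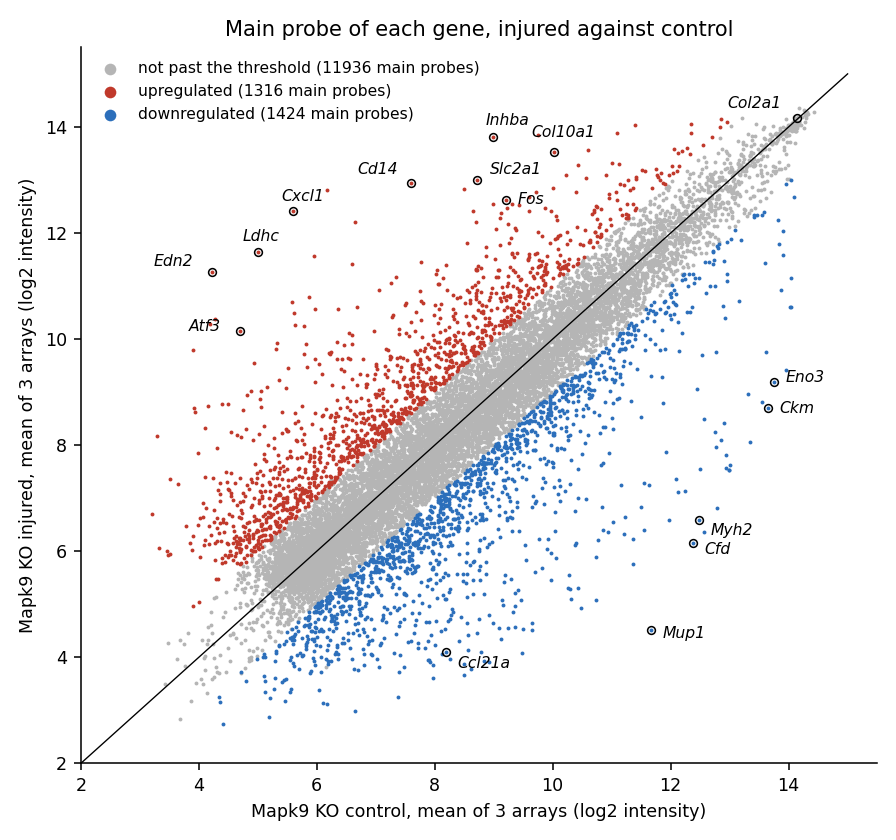
Mean log2 intensity of each gene's main probe on 3 Mapk9 KO control arrays (x axis) and 3 Mapk9 KO injured arrays (y axis), coloured by whether that probe passed a 2-fold change and an adjusted p under 0.05. Chemokine, glycolysis and growth factor genes such as Cxcl1, Ldhc and Inhba lie far above the diagonal, muscle and fat genes such as Ckm and Cfd far below it, and Col2a1 lies on it.

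For probes that no array of one condition detected, the change is given as "at least" some fold. The bound compares the bright group's mean with the dim group's floor, which is the lowest signal of any detected probe on each array, or the probe's own signal if that is higher. The 5 rises with the highest bounds were those of Ldhc, Edn2, Arc and Cxcl2, and of LOC380979, a locus without an assigned function. Edn2, which encodes the vasoactive peptide endothelin 2, read 3.87, 4.61 and 4.2 on control hips and 11.08, 11.43 and 11.30 on injured hips. It was therefore at least 40.3-fold higher post injury (limma adjusted p = 6.22e-08). LOC380979 rose at least 20.4-fold. Over the whole table, 627 probes were detected on all 3 injured and no control array, of which 468 were upregulated, and 484 probes showed the opposite, of which 393 were downregulated.

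Among genes detected on all 6 arrays, the 10 largest rises were those of Ccl4, Cd14, Inhba, Trib3, Lilr4b, Slc2a1, Clec4e, Ier3, Cdsn and Il1rl1, with log2 changes of 3.88 to 5.55. The list holds a chemokine, receptors of myeloid cells (Cd14, Lilr4b, Clec4e), a subunit of activin A (Inhba) and a glucose transporter (Slc2a1). The 10 largest falls were those of Ckmt2, Myl3, Cox7a1, Ttn, Cox8b, Actn3, Tmod4, Eef1a2, Ckm and the unnamed locus 9830131B04Rik, with log2 changes of −5.47 to −4.93. Nearly all of the named ones encode proteins of striated muscle, and those muscle transcripts are taken up with the cell type lists below. The 5 falls to below detection with the highest bounds were those of Mup1, Ppp1r27, Yipf7, Myot and Casq1, of which Mup1, a major urinary protein gene whose copies are nearly identical and cannot be told apart by probe, fell at least 56.3-fold.

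Of 13 measured genes of the JNK module, 1 was upregulated, 1 was downregulated and the median log2 change was −0.07. These counts are close to the share of all genes and are no result about the module. Mapk8, which encodes JNK1, read 8.23, 8.75 and 8.39 on control hips and 8.13, 8.28 and 8.15 on injured hips. These groups overlapped, and the change of −0.27 (SE 0.19) did not pass (adjusted p = 0.288). The kinases above it gave log2 changes of 0.44 for Map2k4, −0.29 for Map2k7 and 0.41 for Map3k1, none past the threshold. The gene that fell was Mapk8ip1, whose product is the scaffold JIP1. It read 7.0, 7.56 and 7.56 on control hips against 6.38, 6.06 and 5.82 on injured hips, a log2 change of −1.29 (SE 0.22, adjusted p = 0.000957). The gene that rose was Spag9, which encodes the scaffold JIP4, through 1 of its 4 probes, whereas its main probe changed by 0.36. The upregulated count of the list became 2 without control replicate 2, injured replicate 1 or injured replicate 3, and 3 without control replicate 3. By uncorrected quantile normalisation both counts were 0.

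Of 13 measured AP-1 subunit genes, 9 were upregulated and none downregulated, and their median log2 change was 2.15. Jun, the main substrate of JNK, read 8.58, 8.64 and 8.34 on control hips and 10.70, 10.74 and 10.57 on injured hips, a log2 change of 2.15 (SE 0.17, limma adjusted p = 4.78e-06). The WT change was 2.04. For Fos, the usual partner of c-Jun, the control arrays read 8.84, 9.48 and 9.31 and the injured arrays 12.60, 12.89 and 12.36, which is a change of 3.41 (SE 0.22) against 2.32 in the wild type. Fosb went from 6.13, 6.14 and 5.84 to 9.63, 9.49 and 9.47, a change of 3.49 against 2.31 in the wild type. In all 3 genes the injured arrays lay above the control arrays, as they did for 23.6% of all main probes. The KO-minus-WT difference in the change had an unblocked adjusted p of 0.34 for Fos and 0.36 for Fosb. Junb, which often opposes c-Jun, rose by 2.81.

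The stress-induced subunit Atf3 had the highest bound of the group. Its probe read 4.70, 4.78 and 4.60 on control hips, undetected on each, and 10.04, 10.29 and 10.15 on injured hips. That is a rise of at least 18.7-fold (adjusted p = 6.22e-08). Fosl1, which encodes FRA-1, rose at least 8.48-fold, Batf3 at least 4.5-fold and Maff at least 1.53-fold, all from undetected control hips. Fosl2 passed with 2 of its 3 probes, although its main probe stopped just short of a 2-fold change at 0.99 (1.08 to 1.12, and past the threshold, without control replicate 1, control replicate 2 or injured replicate 3). The subunit genes that did not pass were Jund (0.55), Atf2 (−0.33), Batf (0.61) and Mafg (0.25).

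**Figure D2:**
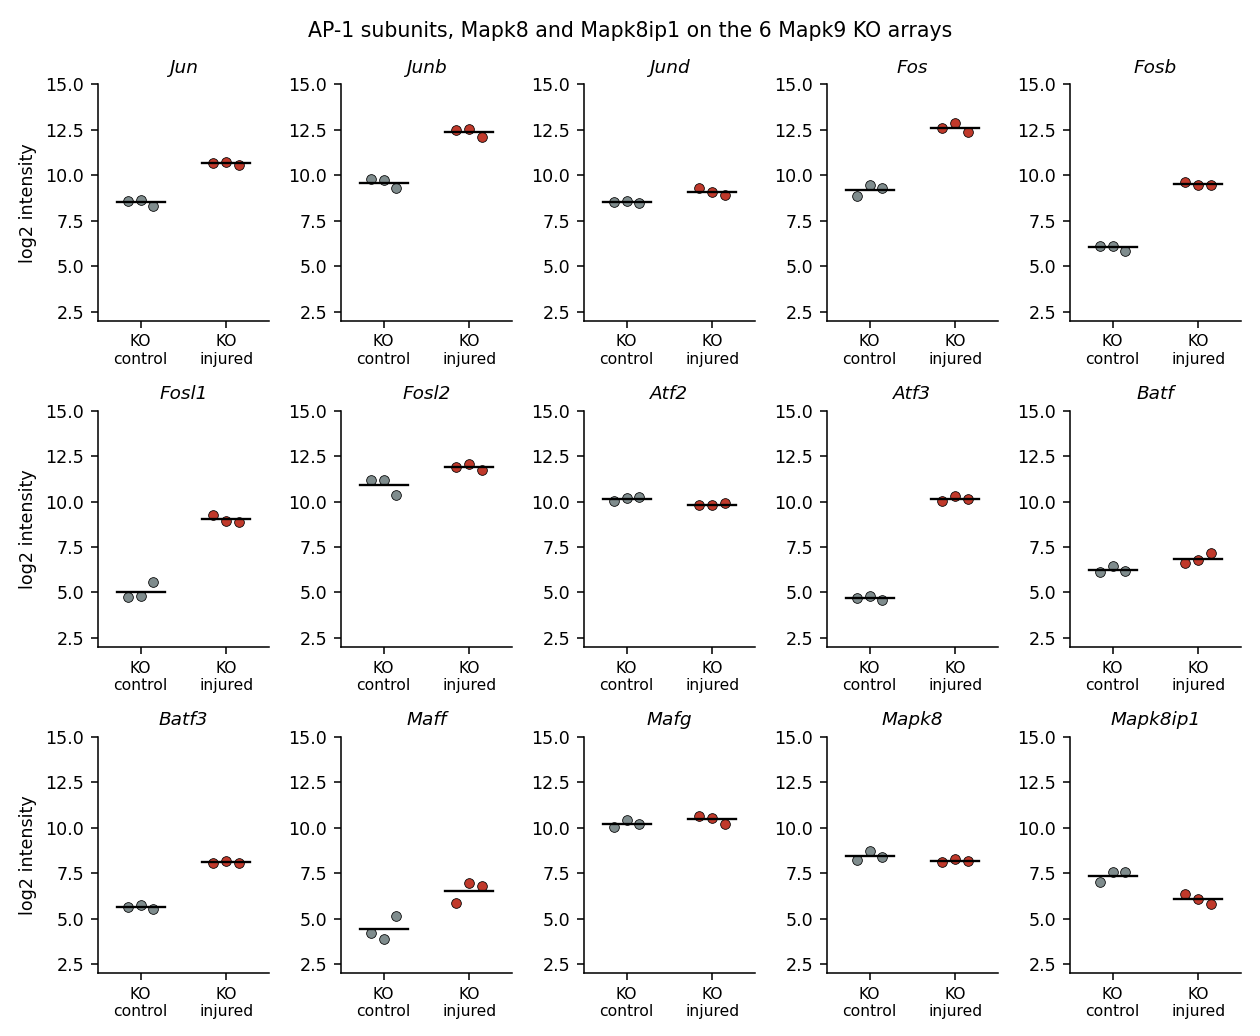
Log2 intensity of the main probe of 13 AP-1 subunit genes, Mapk8 and Mapk8ip1 on each of the 3 control and 3 injured Mapk9 KO arrays (points) with group means (bars). Jun, Fos and Atf3 rose on every injured array, Mapk8 overlapped between groups, and Mapk8ip1 fell by 1.29.

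Of 8 measured MAP kinase phosphatase genes, 3 were upregulated and none downregulated, with a median of 0.22. Dusp1, whose product inactivates JNK and p38, rose by 1.70 from 10.94, 11.24 and 11.02 to 12.72, 12.90 and 12.69. Dusp16, a JNK-selective phosphatase gene, rose by 1.12 and passed with all 3 probes, although the main probe gave 0.998 without control replicate 3 and 0.95 without injured replicate 2, short of the limit. Dusp4 passed with 2 of 3 probes, but its main probe changed by −0.72. Without control replicate 3 a single phosphatase gene was called downregulated.

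Of 13 other early response genes, 9 were upregulated and none downregulated (median 1.51). Arc, an immediate early gene known from neurons, rose at least 23.7-fold. Ier3 rose by 4.10, Csrnp1 by 3.18 and Zfp36, whose product destabilises cytokine mRNAs, by 2.86. Zfp36 read 10.39, 10.63 and 10.24 on control hips and 13.38, 13.41 and 13.07 on injured hips, far outside the spread within either group. Egr2 and Egr1 rose by 2.28 and 1.68.

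Chemokine genes moved in both directions. Of 23 measured, 10 were upregulated and 6 downregulated, so the median was −0.05. Cxcl1, a neutrophil attractant, was among the rises. It read 5.64, 5.93 and 5.21 on control hips and 12.46, 12.68 and 12.11 on injured hips, a log2 change of 6.82 (SE 0.23, adjusted p = 6.22e-08), against 7.61 in the wild type. Its probe was detected on 1 of the 3 control arrays. The related Cxcl2 was undetected on control hips and rose at least 21.9-fold. Ccl4 (MIP-1β) went from 6.62, 6.65 and 6.69 to 11.93, 12.63 and 12.04, a change of 5.55. Ccl3 rose at least 11.5-fold and the monocyte attractant Ccl2 at least 2.52-fold, and Ccl7 rose by 3.25.

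Other chemokine genes fell. Ccl21a, which guides lymphocytes and dendritic cells along lymphatics, read 7.96, 7.85 and 8.77 on control hips and 4.18, 3.78 and 4.34 on injured hips. It was undetected on every injured array and fell at least 5.04-fold. In the wild type its log2 change was −1.08 and did not pass, and the difference between genotypes had an adjusted p by limma of 0.312, and of 0.057 with the replicate number as a block. Cxcl9, an interferon-induced chemokine, fell by 2.45, the eosinophil attractant Ccl11 by 1.58 and the stromal chemokine Cxcl12 by 1.32. The Cxcl9 probe was detected on 1 of the 3 injured arrays. The monocyte attractant Ccl8, detected on 1 control and no injured array, fell at least 1.05-fold, whereas Cxcl10, also induced by interferon, rose at least 1.71-fold. With uncorrected quantile normalisation 3 chemokines in place of 6 were called downregulated. Macrophage markers fell on the same arrays, from a mean list level of 8.82 to 8.96 down to 7.99 to 8.26, and bone markers fell too. The part of these cells in the chemokine falls was not tested.

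The promoters of Cxcl1 and Cxcl2 are shown because both genes rose steeply and both windows hold matches to an NF-kB motif, as does that of Nfkbia. The 120 bases before the RefSeq start site of each gene are given 5′ to 3′ on the gene's strand (GRCm38.p6), with matches on either strand to the motif GGG, any 2 bases, then TTTCC in capitals. Cxcl1 lies at chr5:90891125-90891244 on the plus strand, Cxcl2 at chr5:90903779-90903898 on the plus strand and Nfkbia at chr12:55492648-55492767 on the minus strand.
Cxcl1: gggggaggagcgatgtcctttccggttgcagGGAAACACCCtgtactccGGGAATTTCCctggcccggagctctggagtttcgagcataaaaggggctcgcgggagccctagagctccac
Cxcl2: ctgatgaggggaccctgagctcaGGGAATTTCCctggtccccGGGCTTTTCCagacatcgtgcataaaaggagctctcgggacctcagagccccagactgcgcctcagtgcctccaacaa
Nfkbia: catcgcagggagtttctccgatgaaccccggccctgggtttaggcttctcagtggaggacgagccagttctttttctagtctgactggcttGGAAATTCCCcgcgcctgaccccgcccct
Both chemokine windows hold 2 matches, and the Nfkbia window holds 1. Over the 250 bases before each start site, the motif was found in 1.41% of 32851 windows of all genes, 1.51% of 12096 windows of genes on the arrays, 2.06% of windows of upregulated genes and 1.8% of windows of downregulated genes. Among upregulated chemokine genes it was found in 2 of 7 windows, which are those of Cxcl1 and Cxcl2, and among upregulated genes of the NF-kB list in 5 of 11 windows, which belong to Nfkb2, Nfkbia, Rel and Tnfaip3. A match describes these letters only.

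NF-kB genes were upregulated in 8 of 16 cases, and none was downregulated (median 1.06). Nfkbiz, whose product is a nuclear cofactor of NF-kB, read 6.94, 7.35 and 7.57 on control hips and 10.45, 10.46 and 10.46 on injured hips, a log2 change of 3.17 (SE 0.20). Tnfaip3, which encodes the ubiquitin-editing enzyme A20, rose by 2.05, Bcl3 by 2.04, Nfkbid by 2.00 and Nfkbia, which encodes IκBα, by 1.32. Of the subunits, Rel rose at least 1.27-fold and Relb by 1.18, while Nfkb1 changed by 0.93 and Rela by 0.53, neither past the fold limit, although Nfkb1 passed it at 1.01 without injured replicate 3. By uncorrected quantile normalisation 5 genes were called.

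Inflammatory mediators were upregulated in 13 of 21 measured genes and downregulated in 1 (median 1.41). The cytokine gene Il1b read 8.43, 8.58 and 8.65 on control hips and 11.85, 12.14 and 11.43 on injured hips, a log2 change of 3.26 (SE 0.21). The decoy receptor gene Il1r2 rose by 3.47 and the IL-33 receptor gene Il1rl1 by 3.88. Tnf rose at least 1.78-fold and Sele, the endothelial selectin, at least 2.32-fold. Tnfrsf12a, which encodes the TWEAK receptor, rose by 2.72. The prostaglandin synthase gene Ptges rose by 2.35, with its main probe detected on 1 of the 3 control arrays. The adhesion gene Icam1 rose by 1.77. Vcam1, another adhesion molecule, fell by 1.12. With uncorrected quantile normalisation 7 mediators were called upregulated.

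In the family of cytokines that signal through gp130, 9 of 22 genes were upregulated and none downregulated (median 0.29). Il11, a cytokine of stromal cells, read 5.54, 5.37 and 5.01 on control hips and 10.03, 9.63 and 9.76 on injured hips, at least 14.7-fold higher. Osm rose by 3.78 and its receptor gene Osmr by 1.42. Il6 rose at least 1.07-fold and Lif at least 1.6-fold, both from undetected control hips. Clcf1, a cytokine that acts through the CNTF receptor, rose at least 1.71-fold. The feedback inhibitors Socs3 and Cish rose by 2.74 and 1.74. The shared receptor gene Il6st itself did not pass (−0.25).

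None of 26 measured interferon-response genes was upregulated, and 3 were downregulated, close to the share of all genes (median −0.56), which were Ifit3, Usp18 and Gbp2. The downregulated count was 5 without control replicate 2, 6 without control replicate 3 and 7 without injured replicate 2.

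Among matrix proteases, the targets for which JNK is best known in cartilage, 7 of 30 were upregulated and 10 downregulated (median −0.10). Adam8 rose by 3.42, from 6.32, 6.60 and 6.49 to 9.95, 10.13 and 9.58. The aggrecanase gene Adamts4 read 7.61, 7.71 and 7.44 on control hips and 9.35, 9.25 and 9.17 on injured hips, a log2 change of 1.67 (SE 0.17, adjusted p = 2.63e-05), and 1.66 in the wild type. Adamts1 was undetected on control hips and rose at least 4.49-fold. The stromelysin gene Mmp3 went from 10.25, 10.17 and 9.85 to 11.86, 11.96 and 12.03, a change of 1.86 (SE 0.18), and its neighbour Mmp10 rose at least 2.24-fold.

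Other proteases central to cartilage loss did not pass. Adamts5, the second main aggrecanase gene, changed by −0.42 (SE 0.20), and its groups read 7.91, 7.81 and 8.31 against 7.49, 7.43 and 7.85, which overlap. Mmp13, which encodes the main collagenase of cartilage, changed by −0.01 at levels of 13.47 to 14.38, near the highest log2 value of any probe on these arrays, which was 14.8.

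The falling proteases included Mmp16 (−3.03), Adamts12 (−2.19), Mmp23 (−2.17) and Adamts2 (−1.76), as well as the osteoclast protease gene Ctsk (−1.57) and Mmp2 (−1.21). Markers of osteoblasts and osteoclasts fell on the same arrays, from a mean list level of 10.60 to 11.08 down to 9.62 to 9.95, and their part in the protease falls was not tested. Of 12 protease inhibitor genes, 3 were upregulated and 1 downregulated (median 0.01). Timp3, an inhibitor of aggrecanases, rose by 1.60 and Timp1 changed by 0.48 without passing. Without control replicate 3 or injured replicate 2 the falling inhibitors numbered 2. By uncorrected quantile normalisation 4 proteases and 1 inhibitor were called upregulated, and no inhibitor downregulated.

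The promoters of Mmp3 and Mmp10 are shown because each holds 1 match to the AP-1 motif TGANTCA, in capitals, in the 120 bases before the start site. They lie at chr9:7445702-7445821 and chr9:7502222-7502341, both on the plus strand.
Mmp3: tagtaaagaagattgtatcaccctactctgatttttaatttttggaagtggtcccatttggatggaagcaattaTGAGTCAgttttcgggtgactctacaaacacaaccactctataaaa
Mmp10: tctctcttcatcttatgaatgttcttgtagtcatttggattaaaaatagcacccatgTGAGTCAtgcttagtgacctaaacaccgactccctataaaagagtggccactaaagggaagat
In the 250-base windows, this motif was found for 6.75% of all start sites, 4.92% of those of genes on the arrays, 6.26% of those of upregulated genes and 5.1% of those of downregulated genes. Of 6 windows of upregulated proteases it was found in these 2.

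Of 26 measured genes of chondrocyte identity and matrix, 17 were upregulated, 15 of them on the main probe, and 1 was downregulated (median 1.15). Sox9, the master transcription factor of chondrocytes, read 12.32, 12.47 and 11.36 on control hips and 13.56, 13.77 and 13.44 on injured hips, a log2 change of 1.54 (SE 0.27). Acan, which encodes aggrecan, rose by 2.18, from 11.31, 11.34 and 10.71 to 13.36, 13.33 and 13.20. Col10a1, the collagen of hypertrophic chondrocytes, went from 10.34, 10.10 and 9.65 to 13.52, 13.48 and 13.57, a change of 3.49 (SE 0.20). In each of these genes control replicate 3 was the lowest of the 6 arrays. Col9a1 rose by 3.54, Matn1 by 3.07, the growth plate signal Ihh by 2.59 and Hapln1, which ties aggrecan to hyaluronan, by 1.98.

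Col2a1, the main collagen of cartilage, changed by 0.03 and the lubricin gene Prg4 by −0.28, both at levels between 13.73 and 14.72, near the top of the scale. Only 5 of 73 probes whose control mean lay above 14 passed the threshold. The gene that fell was Sox6, through 1 of its 2 probes. That count of 1 was 2 without control replicate 1, control replicate 3 or injured replicate 3, and 0 by neqc normalisation, with uncorrected quantile normalisation, by the methods' t-test with Benjamini-Hochberg adjustment or among probes detected on at least 3 arrays. The mean level of the whole list was 9.94 to 10.54 on control and 11.47 to 11.54 on injured hips, while muscle, fat, macrophage and bone markers fell on the same arrays. Whether the share of chondrocyte RNA or the level per chondrocyte rose cannot be told apart in bulk tissue, and the same holds for every cell type below.

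Matrix genes outside that list moved both ways. Of 10 small leucine-rich proteoglycan genes, 1 was upregulated (Epyc, at least 1.65-fold from undetected control hips) and 3 were downregulated, of which only Ogn at −1.76 passed on its main probe. The upregulated count was 2 without control replicate 2 or injured replicate 2, and 0 by the methods' t-test with Benjamini-Hochberg adjustment or with uncorrected quantile normalisation. In hyaluronan metabolism, Has1 rose by 3.50, from 6.00, 6.14 and 6.54 to 9.78, 9.76 and 9.61. Has2 rose by 2.99, with its probe detected on 1 of the 3 control arrays. Of the hyaluronidases, Hyal1 fell by 1.27 and Hyal2 by 1.41. The other 4 of the 8 measured genes did not pass, and with uncorrected quantile normalisation 1 fell in place of 2.

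Growth factor genes gave 18 rises and 10 falls among 44 measured (median 0.37). Inhba, which encodes the subunit of activin A, read 8.95, 9.30 and 8.73 on control hips and 13.89, 13.95 and 13.59 on injured hips, a log2 change of 4.81 (SE 0.20, adjusted p = 1.11e-07). Its WT change was 4.93. Inhbb rose by 3.22 and Gdf15, a stress-induced member of the same superfamily, at least 8.45-fold. Nog, a BMP antagonist, rose at least 2.73-fold while Bmp4 fell by 1.87. Fgf2, which cartilage releases from its matrix upon injury, rose at least 2.75-fold. The EGF receptor ligand gene Hbegf rose by 3.02 and Egfr itself fell by 1.59. Vegfa rose by 3.04, from 8.86, 9.29 and 8.96 to 11.79, 12.24 and 12.19, and Igf1 fell by 2.49. In the Wnt pathway, 3 of 21 genes were upregulated and 6 downregulated (median −0.52). Frzb, a secreted Wnt antagonist of cartilage, rose by 2.33 and Wnt5a fell by 1.45. With uncorrected quantile normalisation 1 Wnt gene rose and 1 fell.

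Glucose uptake and glycolysis rose in 16 of 30 genes, in 13 on the main probe, and fell in 5 (median 0.79). Slc2a1, which encodes the glucose transporter GLUT1, read 8.56, 8.96 and 8.62 on control hips and 12.85, 13.31 and 12.86 on injured hips, a log2 change of 4.30 (SE 0.20). Ldhc, a lactate dehydrogenase gene best known from testis, read 4.72, 5.35 and 4.96, undetected, and then 11.58, 12.10 and 11.23. It rose at least 52.1-fold (adjusted p = 6.47e-08). Pfkp rose by 3.26, Slc2a3 by 2.27 and Hk2 by 1.72, whereas Gapdh changed by −0.07 at levels of 13.91 to 14.73. The falls included the muscle isoforms. Eno3 went from 13.90, 13.86 and 13.47 to 9.30, 9.54 and 8.72, a change of −4.56 (SE 0.23), Pgam2 changed by −4.50 and Pfkm by −2.53. Skeletal muscle markers fell on the same arrays, from a mean list level of 11.84 to 12.02 down to 7.27 to 8.36, and their part in these falls was not tested. Of 24 metabolic genes named by the study, which drew them from this series, 16 rose and 7 fell, and they are no independent evidence of direction.

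The hypoxia list holds genes that respond to low oxygen and the transcription factor genes Hif1a, Arnt and Epas1. Of its 23 genes 19 rose, with no fall (median 1.95). In 16 of them the main probe passed, whereas Arnt, Epas1 and Mxi1 were called through a dimmer probe only, and the main probes of Arnt and Epas1 changed by −0.29 and −0.14. Stc1 read 7.11, 7.62 and 7.29 on control hips and 11.17, 11.25 and 11.06 on injured hips, a change of 3.82 in both genotypes. Adm, which encodes the vasodilator adrenomedullin, rose at least 6.85-fold, the oxygen sensor gene Egln3 by 3.32, Ak4 by 3.10 and Ddit4, an inhibitor of mTOR signalling, by 2.83. Without control replicate 3 a single gene of the list was called downregulated. In arginine and polyamine metabolism 8 of 21 genes rose, 5 of them on the main probe, and 1 fell (median 0.39). Slc7a2, which encodes a cationic amino acid transporter, rose by 1.63. Gamt, a gene of creatine synthesis, fell by 2.23. Odc1, the entry enzyme of polyamine synthesis, did not pass (0.39). By uncorrected quantile normalisation 5 genes of this list rose.

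Targets of ATF4, the transcription factor of the integrated stress response, had the highest upregulated share of the lists described here. Of 24 measured, 20 rose, all on the main probe, and none fell (median 1.65). Trib3 read 6.79, 6.86 and 6.16 on control hips and 11.28, 11.55 and 11.40 on injured hips, a log2 change of 4.81 (SE 0.21). The transporter genes Slc7a11, which supplies cystine, and Slc7a3 rose by 3.64 and at least 9.01-fold. The main probe of Slc7a11 was detected on 1 of the 3 control arrays. Chac1, which degrades glutathione, rose by 3.55, Ddit3, which encodes CHOP, by 2.63, Asns by 1.5 and Atf4 itself by 1.06. The main probe of Atf4 gave 0.95 without control replicate 1 and 0.83 without injured replicate 3, short of the fold limit, and it did not pass by the methods' t-test with Benjamini-Hochberg adjustment. Of aminoacyl-tRNA synthetase genes, 2 of 18 were called upregulated, which is about the share of all genes, and 1 without control replicate 1 or with uncorrected quantile normalisation (median 0.27).
Slc7a11 and Asns are shown with matches to the ATF4 motif TGATGNAA in capitals. The windows are chr3:50443614-50443733 and chr6:7693210-7693329, both on the minus strand.
Slc7a11: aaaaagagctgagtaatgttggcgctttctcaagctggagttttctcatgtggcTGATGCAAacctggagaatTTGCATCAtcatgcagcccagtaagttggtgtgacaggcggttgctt
Asns: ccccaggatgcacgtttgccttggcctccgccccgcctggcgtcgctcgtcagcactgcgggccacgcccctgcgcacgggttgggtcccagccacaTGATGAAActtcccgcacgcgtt
The Slc7a11 window holds 2 matches and the Asns window 1. The motif was found in 4 of 18 windows of upregulated genes on the list, of Asns, Chac1, Fgf21 and Slc7a11, against 3.45% of all windows, 2.15% of those of genes on the arrays and 2.06% of those of upregulated genes.

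Cholesterol synthesis and uptake gave 14 rises and 1 fall among 23 genes (median 1.12). Insig1, a sterol sensor, rose by 2.94, from 6.54, 6.08 and 6.77 to 9.47, 9.17 and 9.56, and the enzymes Cyp51 and Sqle by 2.64 and 2.09. The gene that fell was Scd1 (−1.68), a fatty acid desaturase gene that the list also holds. Fat markers fell on the same arrays, and their part in this fall was not tested. With uncorrected quantile normalisation 8 genes rose, and by the methods' t-test with Benjamini-Hochberg adjustment Scd1 was not called. Heat shock and ER chaperones gave 12 rises, 10 of them on the main probe, and no fall among 30 (median 0.57). The main probe of Hspa1a read 6.15, 6.57 and 5.82 on control hips and 12.74, 13.09 and 12.61 on injured hips, but Hspa1a and Hspa1b are near-identical copies, so that their signals are uncertain. Hsph1 rose by 1.66. Of 23 NRF2 targets, 6 rose and 2 fell (median 0.17). Srxn1 and Hmox1 rose by 1.72 and 1.5 and Nqo1 changed by −0.94, or by −1.05 and past the threshold without control replicate 2 and −1.07 without injured replicate 3. By uncorrected quantile normalisation 1 target fell.

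Of 20 p53 targets and growth arrest genes, 10 rose and 3 fell (median 1.03). Gadd45b rose by 3.80 and Cdkn1a, which encodes the cell cycle inhibitor p21, by 1.79, while Phlda3 and Ccng1 fell by 2.22 and 1.65. In the cell cycle list none of 36 genes rose and 8 fell, 6 of them on the main probe (median −0.49), led by the cyclin gene Ccne1 (−1.45). Mki67, the proliferation marker, changed by −0.56 without passing the fold limit. With uncorrected quantile normalisation 3 fell. Of 15 clock genes 7 rose and 1 fell (median 0.98). Ciart, a repressor of the clock, rose by 3.94, with its main probe detected on 1 of the 3 control arrays. Nfil3 rose by 3.50, Per1 by 2.88 and Per2 by 2.50. Per1 read 7.66, 7.98 and 7.76 on control hips and 10.70, 10.69 and 10.64 on injured hips, with no overlap. The fall was in 1 probe of Tef, and with uncorrected quantile normalisation it was absent.

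Of 23 ribosome biogenesis genes 3 were called upregulated (median 0.41), which is close to the share of all genes, and 1 with uncorrected quantile normalisation. None of 26 proteasome genes passed by limma in the main analysis (median −0.19), and 1 was called downregulated without control replicate 1 or without injured replicate 3. Oxidative phosphorylation gave 16 falls among 44 genes (median −0.89). The gene Uqcrb was called upregulated through its dimmer probe, while its main probe changed by −0.71, and it was not called with uncorrected quantile normalisation. The 3 largest falls were those of the muscle isoforms Cox7a1 (−5.38), Cox8b (−5.29) and Cox6a2 (−3.87), next to which the falls of the widely expressed subunits were smaller, with Sdhb at −1.59. The muscle markers fell with them, as given for the glycolytic isoforms.

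**Figure D3:**
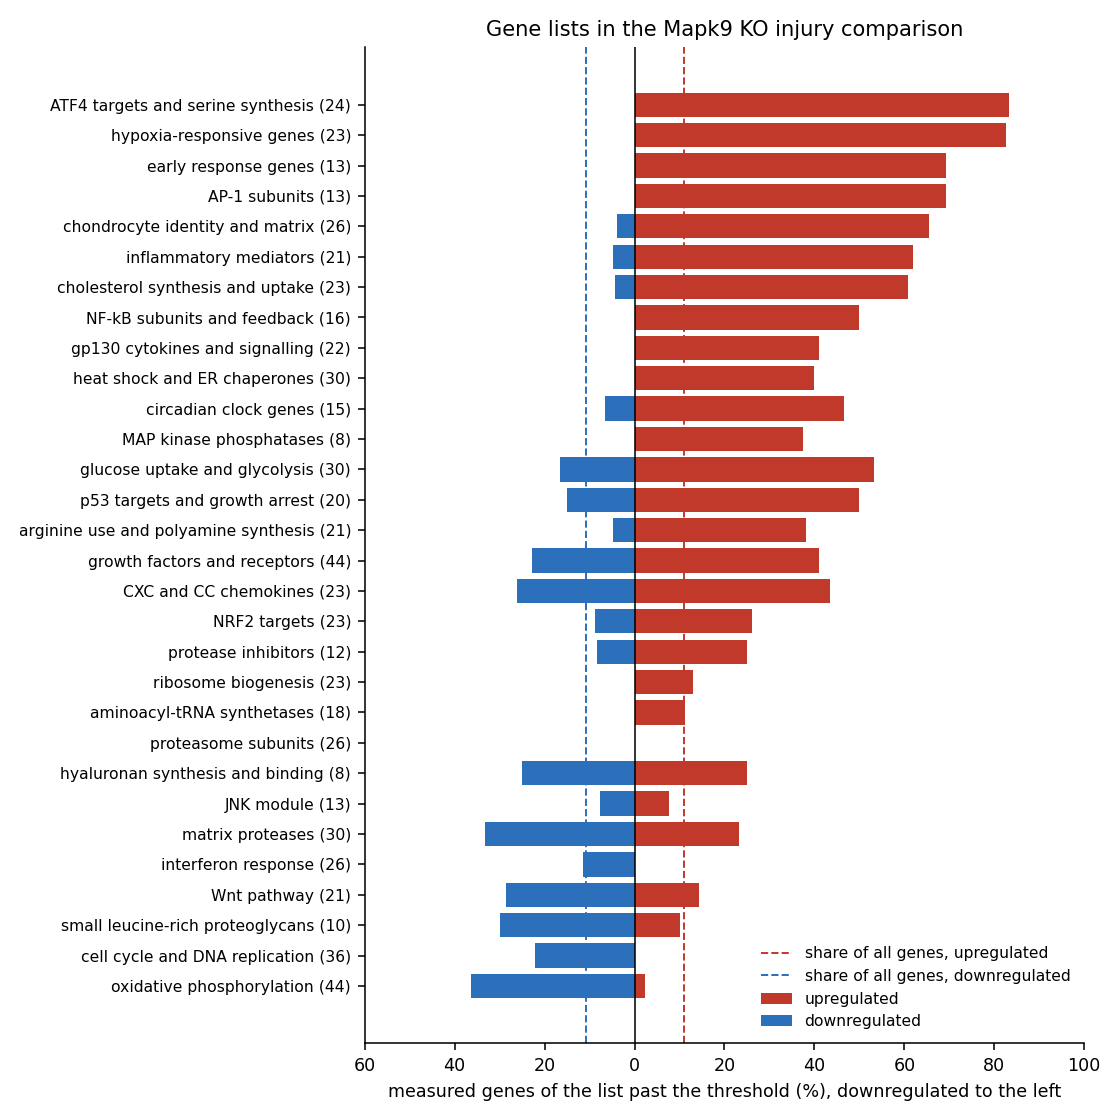
Share of the measured genes of each list (number in parentheses) that were upregulated (right) or downregulated (left, in percent) through at least 1 probe in injured against control Mapk9 KO hips, with dashed lines at 11.0% and 10.7% of all genes. Lists of other cell types and the genes named by the study are not plotted. ATF4 targets (20 of 24) and hypoxia-responsive genes (19 of 23) lie at the top, and oxidative phosphorylation (16 of 44 downregulated) at the bottom.

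Cell types other than chondrocytes were present in the samples, and counts of their markers are read against the 11.0% and 10.7% of all genes. All 34 skeletal muscle markers measured were downregulated, with a median of −4.50. Ckm, the muscle creatine kinase, read 13.74, 13.83 and 13.36 on control hips and 8.17, 9.60 and 8.35 on injured hips, a change of −4.93. Titin (Ttn) changed by −5.37, the fast myosin gene Myh2 by −5.88 and skeletal actin (Acta1) by −2.32. Of these markers 33 to 34 were detected on control and 24 to 29 on injured arrays, so that muscle RNA was seen in both conditions. The WT control hips read 9.32 to 11.78 for the list mean, all below the knockout control hips at 11.84 to 12.02, while the WT injured hips at 6.99 to 8.75 overlapped the knockout injured hips. The part of muscle in the other falls of the transcriptome was not tested.

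Fat markers gave 10 falls and 1 rise among 16 (median −2.17), with 5 falls and no rise by the methods' t-test with Benjamini-Hochberg adjustment. No rise was left without control replicate 2 or injured replicate 2 either. Cfd, which encodes adipsin, read 11.80, 11.89 and 13.43 on control hips and 5.02, 6.58 and 6.87 on injured hips, a change of −6.21. Adipoq changed by −1.74. Control replicate 3 stood apart with a fat list mean of 10.2, the highest of the 6, and with the lowest chondrocyte mean of 9.94.

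Macrophage markers fell in 11 and rose in 4 of 20 cases (median −1.40). The complement genes C1qa (−2.81), C1qb and C1qc, the receptor gene Csf1r (−2.21) and the scavenger receptor Cd163 were among the falls. Csf1r read 9.27, 9.42 and 9.43 on control hips and 6.89, 7.34 and 7.27 on injured hips. Cd14, the endotoxin co-receptor, went the other way, from 7.63, 7.59 and 7.59 to 12.71, 13.24 and 12.85, a change of 5.33 (SE 0.19). The rises numbered 2 without control replicate 1 or injured replicate 2, and with uncorrected quantile normalisation 2 rose and 7 fell. Neutrophil markers rose in 13 of 20 cases with no fall (median 1.01), 10 of them on the main probe, among them the formyl peptide receptor gene Fpr1 (at least 2.54-fold), Lcn2 (a log2 change of 1.30) and Cxcr2 (2.25), whose product binds CXCL1 and CXCL2. S100a8 changed by −0.07 at levels of 13.39 to 14.22. Ltf, Mpo and Chil3 were called through dimmer probes only, and their main probes changed by −0.20, 0.11 and 0.69. A single neutrophil gene was called downregulated without control replicate 3 or injured replicate 2. The neutrophil list mean was 11.30 to 11.53 on control and 12.19 to 12.65 on injured hips, and its part in the rises of chemokine and Il1 family genes was not tested.

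Erythroid markers gave 8 falls among 18, 6 of them on the main probe (median −0.83), led by Car1 at −2.37, while the globin gene Hbb-b1 changed by −0.04 near the top of the scale. Without injured replicate 3 the list gave 5 falls and 1 rise, and with uncorrected quantile normalisation 4 falls. Markers of bone cells gave 10 falls and 2 rises among 22 (median −0.92), and 1 of the rises, that of Nfatc1, rested on 1 of 5 probes while the main probe changed by −0.68. The osteoclast receptor gene Oscar changed by −2.95, Acp5 by −2.40, the osteoblast gene Ifitm5 by −3.08 and Col1a2 by −2.44. Oscar read 9.84, 9.98 and 9.71 on control hips and 6.67, 7.02 and 6.98 on injured hips. The rises numbered 1 without control replicate 2, injured replicate 1 or injured replicate 3 and by the methods' t-test with Benjamini-Hochberg adjustment, and 0 with uncorrected quantile normalisation. Endothelial markers barely moved, with 1 rise and 1 fall among 19 (median −0.06), and their list mean was 9.23 to 9.58 on control and 9.22 to 9.54 on injured hips. Of 13 B cell markers 2 rose, 1 of them on the main probe, and 1 fell (median 0.33). Those rises numbered 1 without control replicate 2 or with uncorrected quantile normalisation and 4 without control replicate 3.

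**Figure D4:**
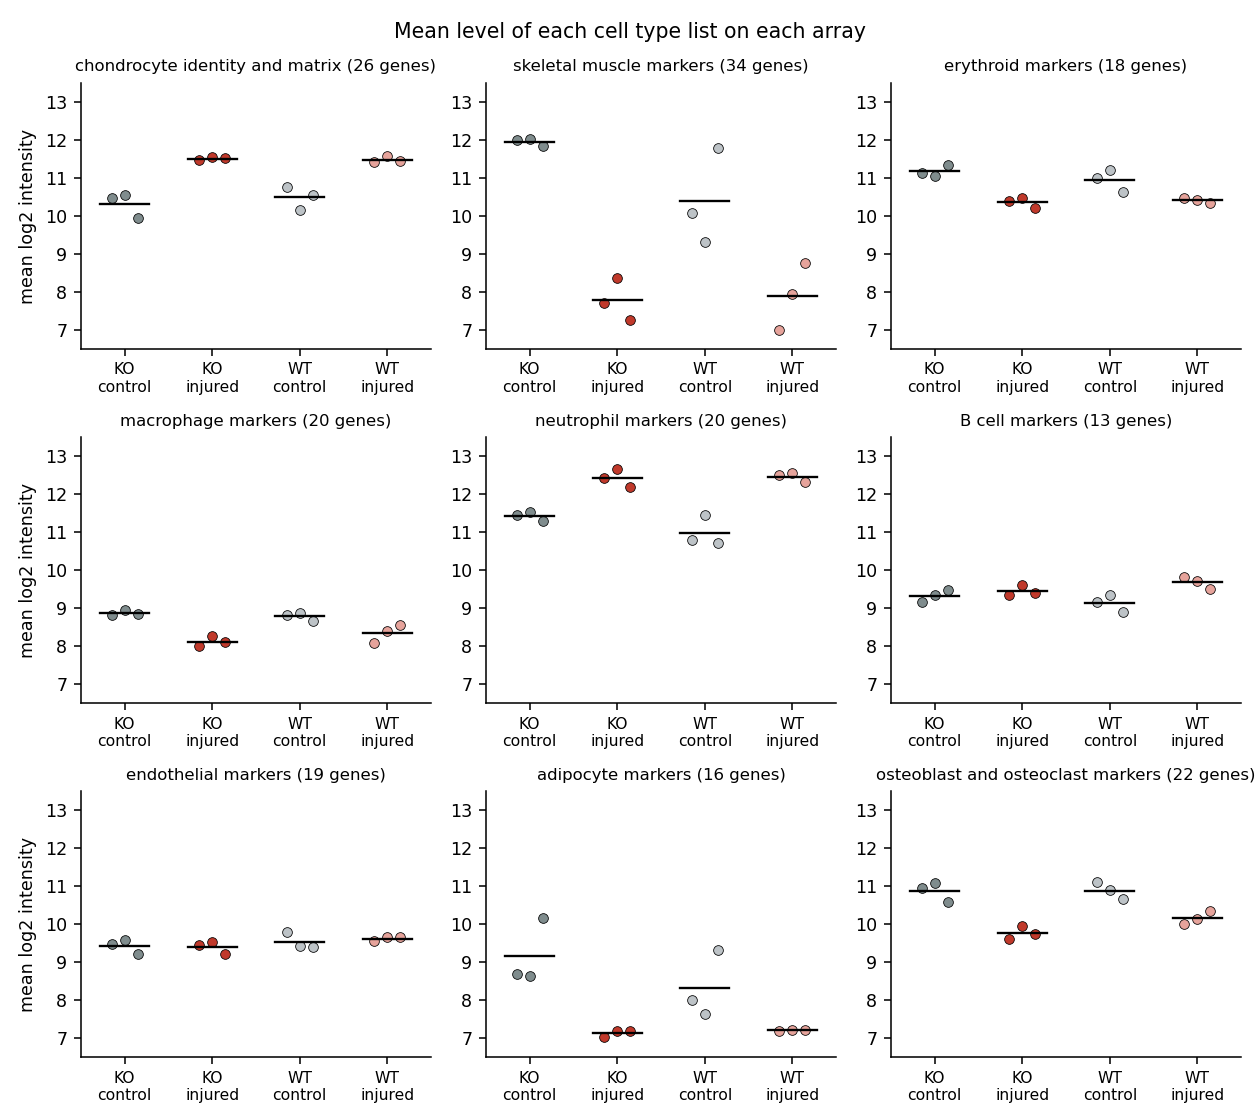
Mean log2 intensity over each cell type list on every array (points) with group means (bars), for Mapk9 KO and WT control and injured hips. Muscle markers lay at 11.84 to 12.02 on knockout control arrays and at 7.27 to 8.36 on knockout injured arrays, and WT control arrays lay between 9.32 and 11.78.

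The question of whether the response differed without Mapk9 was put to the difference of the injury changes, knockout minus wild type, over all 12 arrays. With limma 0 of 21004 probes (0.0%) passed an adjusted p of 0.05, and 2088 (9.94%) had an unadjusted p under 0.05. Replicates of the same number deviated together across groups, and with the replicate number as a block 112 probes of 105 genes (0.533%) passed. For 102 of these probes the change was higher in the knockout. In 98 of the 112 the mean of knockout control hips lay below that of WT control hips. Without WT control replicate 3, the array with the highest muscle level of its group at 11.78, 242 probes of 208 genes passed without the block, 217 of them with the lower change in the knockout, and 16 were shared with the blocked fit.

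Among the list genes, Fgfr3, which encodes a receptor that restrains chondrocyte growth, had the smallest blocked p. On knockout control hips it read 6.58, 5.65 and 5.97 and on injured hips 8.60, 7.67 and 8.65, a change of 2.24, while WT control hips read 7.93, 6.60 and 7.27 and WT injured hips 7.90, 6.67 and 7.34, a change of 0.03. The difference of 2.21 (SE 0.23) had an adjusted p of 0.0137 with the block and 0.312 without. The Fgfr3 probe was detected on 2 of the 3 knockout control arrays, so that this size rests in part on values near background. Hif1a, the oxygen-regulated transcription factor gene, rose by 2.28 in the knockout, from 7.04, 6.84 and 7.03 to 9.41, 8.92 and 9.43, and changed by 0.49 in the wild type (blocked adjusted p = 0.0287, unblocked 0.277). Clcf1 also passed with the block (adjusted p = 0.0368, unblocked 0.267). Its probe was undetected on all control hips of both genotypes, so that the size of its difference rests on values near background. Tnnt1, a slow muscle troponin gene, fell by 2.71 in the knockout and changed by 0.15 in the wild type, and its knockout control hips also had the higher level of the muscle list. The part of muscle in this difference was not tested.

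Among the AP-1, chemokine and protease genes described above, neither fit called Jun (blocked adjusted p = 0.81), Fos (0.16), Atf3 (0.80), Cxcl1 (0.60), Adamts4 (0.99) or Mmp3 (0.56). A p above the threshold does not show that the genotypes responded alike.

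**Figure D5:**
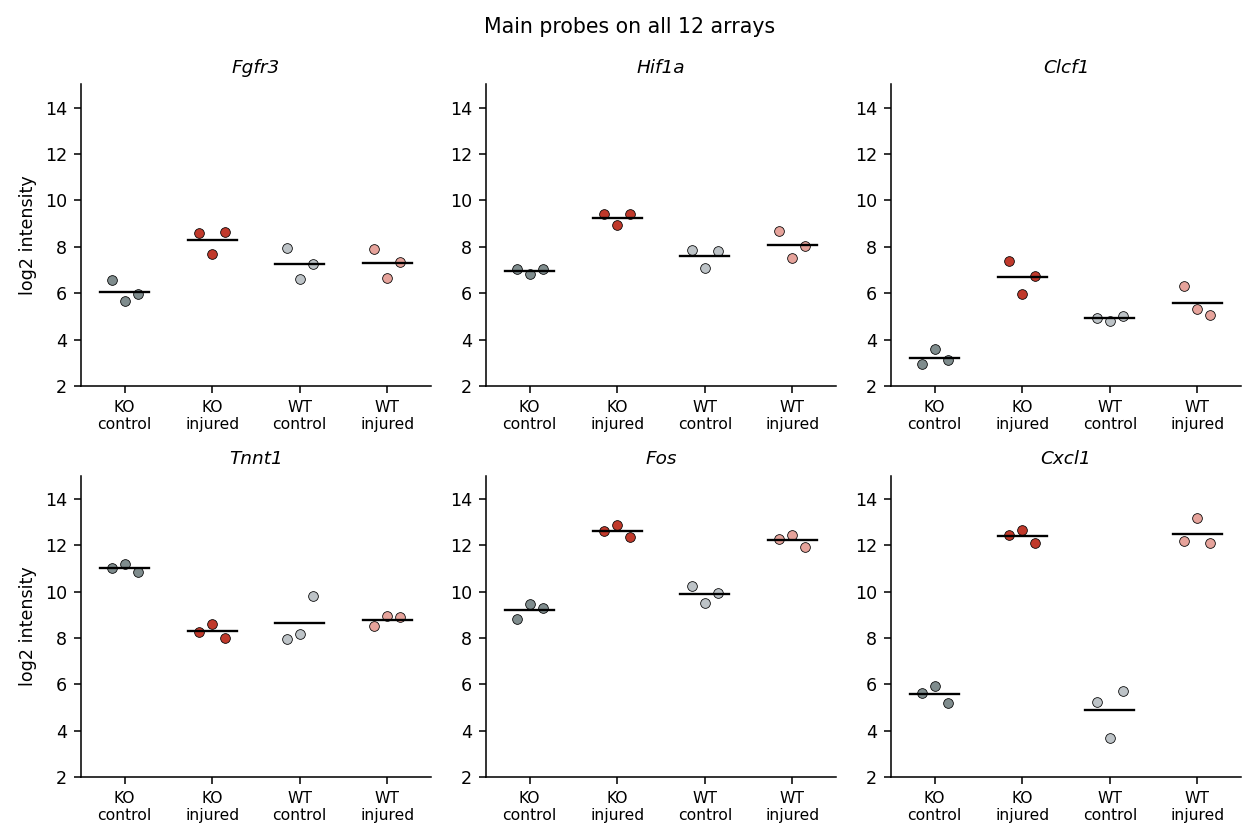
Log2 intensity of the main probes of 6 genes on all 12 arrays (points) with group means (bars). Fgfr3 and Hif1a changed by 2.24 and 2.28 in the knockout against 0.03 and 0.49 in the wild type, Clcf1 was undetected on control arrays of both genotypes, Tnnt1 fell by 2.71 in the knockout, and Fos and Cxcl1 rose in both genotypes.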

How the data were processed

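Hip cartilage RNA of 12 samples was hybridised to Illumina mouse bead arrays, and the 6 Mapk9 KO arrays were compared here, with 3 injured and 3 control hip samples grouped by their labels. The authors deposited raw probe intensities with a detection p-value for each probe and array, as exported by the scanner software. The authors also deposited a table of log2 values for 21004 of the 45281 probes, which they made from those intensities by correction against negative control probes and vsn normalisation in R (versions not given in the sources used here). These log2 values were used as deposited.

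Injured and control arrays were compared with limma 3.58.1 in R 4.3.3 (lmFit and eBayes, no covariates), and p values were adjusted by Benjamini-Hochberg over the whole table. The threshold was met by a gene when at least 1 probe changed more than 2-fold at an adjusted p under 0.05, and values are those of its brightest probe over the 6 arrays (the main probe) unless stated otherwise. Adjusted p values are limma's. The difference between genotypes was fitted over all 12 arrays, and Mapk9 was compared by an exact permutation test. Arrays with the same replicate number deviated together in every pair of groups (correlations of 0.153 to 0.390 over 18 pairs, and 0.233 to 0.321 within the knockout), so the replicate number was also used as a block. Nothing in the sources says what the number marks. The number of arrays limits the precision, and no source says whether the Mapk9 KO replicates came from separate animals, so that the p values measure the spread between these arrays. On simulated data of the same size, 83.7% of changed probes were recovered with 2.33% of calls false for the knockout comparison. For the difference between genotypes these rates were 67.4% and 4.12%. The simulated arrays varied independently, without deviations shared by replicate number, and only 200 probes per draw were changed, each by more than 2-fold. The rates are therefore not those of the fits on the real arrays.

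Probe names were updated through RefSeq gene tables, and 2860 probes that matched nothing kept the name in the file. Promoter sequences and start sites are RefSeq's. Named genes were Mapk9, the JNK and AP-1 lists, the 10 largest rises and falls detected on all 6 arrays, the 5 largest to or from below detection, the leading and best-known members of each list, and those with the smallest p for the genotype difference. Ccl8, Cxcl10 and the genes called through dimmer probes (Uqcrb, Nfatc1, Arnt, Epas1, Mxi1, Ltf, Mpo and Chil3) were added after their values were seen. Some genes that these rules name are not reported here. The comparison, the lists and the tests were chosen with earlier results of these data known. The alternatives were other normalisations, a detection filter, other fold limits, the t-test of the methods, blocks and leaving out each array. The methods name that t-test for metabolite features, and a figure legend names it for gene expression too. Benjamini-Hochberg was the adjustment chosen here.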

Additional observations from a re-analysis of the deposited data

Results flagged for a closer look

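For 8 genes of the lists the injury change differed between knockout and wild type when the replicate number was a block in limma (adjusted p under 0.05). None of the 8 differed without the block, where their adjusted p values were 0.267 to 0.494, and Tnnt1 is the one that fell more in the knockout. Fgfr3 rose by 2.21 more in the knockout (blocked adjusted p = 0.0137) and Hif1a by 1.79 (0.0287). The Fgfr3 probe was detected on 2 of the 3 knockout control arrays. The fitted differences were 2.85 for Clcf1 (0.0368) and 1.54 for the clock gene Per3 (0.0365), but both probes were undetected on all knockout control arrays, so that these sizes rest on values near background. The Per3 probe was detected on 2 of the 3 knockout injured arrays. The other 3 rises rest on the dimmer probe of each gene, and that of Sqle was undetected on all knockout control arrays. Sqle rose by 2.12 more (0.0259), the chaperonin gene Hspd1 by 1.38 more (0.0329) and Sox5 by 1.80 more (0.0484) on these probes. For the main probe of Sqle the knockout changed by 2.09 and the wild type by 1.72, for that of Hspd1 by 0.33 and 0.54, and for that of Sox5 by 1.84 and 1.59, with blocked adjusted p values of 0.46, 0.66 and 0.76. Tnnt1, a muscle gene, gave a difference of −2.86 (0.0448), and its WT control hips read 7.96, 8.20 and 9.80 against 11.00, 11.21 and 10.83 in the knockout. Of all 112 probes that passed with the block, 49 (43.8%) were not the main probe of their gene, compared with 30.1% of all probes.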

How the results depend on the processing

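Under the alternatives, 27 of the 180 named genes past the threshold lost their call in at least 1, and the direction of no call was reversed among the 217 named genes. Quantile normalisation without background correction accounted for 24 (Atf4, Ccl11, Ccl8, Ccne1, Cd163, Clcf1, Cxcl10, Dusp16, Epyc, Fgf21, Gbp2, Hyal1, Il6, Lif, Maff, Mapk8ip1, Mmp10, Nfkb2, Per3, Rel, Relb, Sele, Tnf and Wnt5a, on the main probe) and lowered the counts to 747 upregulated and 693 downregulated genes. Without it, 11 lost a call in any alternative, 9 of them by the methods' t-test with Benjamini-Hochberg adjustment. That t-test gave 1369 and 1358 genes, neqc 1504 and 1415, centring on array medians 1616 and 1559, the detection filter 1513 and 1388, and the brightest probe of each gene alone 1316 and 1424. No fold limit gave 3089 and 3290 genes, and a limit of 1.5-fold 2836 and 2986. Leaving out each array in turn gave 1592 to 1688 upregulated and 1506 to 1712 downregulated genes, and 402 to 426 calls over the gene lists, which held 407.

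With the replicate block the knockout comparison gave 1608 and 1568 genes, and it changed no call of a named gene there. For the difference between genotypes the fit with the replicate block gave 112 probes in place of 0. Leaving out each array gave 0 to 242 probes, and the 242 came without WT control replicate 3, with 12 genes of the muscle list among them. Which of these fits is nearer the truth was not tested. Quantile normalisation without background correction moved 26 of 78 list counts by over 1.5 times, the t-test 6, and neqc, which is quantile normalisation with background correction, 1. Leaving out 1 knockout array moved 2 to 8 of them, the 8 without control replicate 3. The lower Mapk9 level in the knockout ranged from −1.66 to −1.49 at the 3′ probe with each of the 12 arrays left out, a check chosen after the data were seen. Levels near the highest intensities and below detection carry least information on change, and 8 upregulated and 63 downregulated probes were detected on none of the 6 arrays.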
